A study of Mus musculus with 19 samples.

Results

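The homeobox transcription factors expressed in mouse kidney were followed across 19 RNA sequencing libraries of injured and uninjured kidneys. Members were the entries that the authors' deposited transcription factor table places in the Homeobox family with a protein identity of at least 95 percent to a database entry, and that reached at least 1 FPKM in at least 4 libraries. FPKM are fragment counts scaled by gene length and sequencing depth. Of 756 Homeobox entries in that table, 210 had this identity, 153 of those had a row of expression values, and 69 passed the expression minimum, out of 19287 entries in all. The other 84 were below the minimum. Lhx2, Lmx1b and Phox2a were closest, with 1 FPKM or more in 3 libraries each, Rhox6 reached it in 2 and Msx1 in 1. Just inside the minimum were BGI_novel_G000111, with 4 libraries, and Wipf3, with 6. The minimum was reached in all 19 libraries by 53 members.

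The kidneys were those of male mice of the inbred strain C57BL/6, in 4 groups named as in the sample titles. IRLacz (4 libraries) and IRLac (5 libraries) are kidneys after ischemia-reperfusion, in which the blood flow is stopped and then restored, from mice given a Lactobacillus strain by mouth for 4 weeks beforehand. IR (5 libraries) is the same injury with no gavage given in the labels, and sham (5 libraries) is the operation without injury, also with no gavage given. Injured kidneys were taken on day 5, and no day is given for sham. The abbreviation in the design text matches IRLacz to Lactobacillus casei Zhang. IRLac was read as the remaining strain, Lactobacillus acidophilus, because its abbreviation there differs by a letter. No label says that each library is a separate mouse, so p-values measure the spread between these libraries, and whole kidney was used, so fewer cells of a type and less RNA per cell cannot be told apart.

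Homeobox genes encode proteins that bind DNA through a homeodomain, a fold of helices that reads short AT-rich motifs. The HOX genes lie in 4 clusters and give cells their position along the body axis, while TALE proteins such as PBX, MEIS and PKNOX bind DNA together with HOX proteins. In the kidney, LHX1, EMX2 and the HOX11 paralogs are known for building the nephron and the collecting system in the embryo. PRRX and ALX proteins mark mesenchyme, the connective tissue of the embryo.

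The family label held for 65 of the 69 entries. The other 4 are unnamed or carry the name of another gene. Ager, which encodes a receptor for glycated proteins, and the unnamed locus BGI_novel_G000111 were matched to PBX2 protein. Fam193a was matched to ZFHX3 over 10 residues and Wipf3, which encodes an actin regulator, to ZFHX4 over 11 residues. Hoxd10 and Hoxd4 are homeobox genes whose best match was the neighbouring Hoxd11 and Hoxd3. The members included 25 HOX cluster genes, 13 TALE genes, 8 of the paired-like class, 7 zinc finger and ZHX genes, 5 other ANTP class genes, 2 ceramide synthases, the LIM gene Lhx1, Six5 and Hmbox1. In the GRCm38 annotation, 46 of 68 named members overlapped another gene, 21 of them on the same strand. The strand of counting is not given in the sources used here, so reads of Emx2 and Emx2os, Hopx and Hopxos, and Hoxa11 and Hoxa11os cannot be told apart, and Hoxc5 spans several other Hoxc genes.

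Promoters are shown for the paralog pair Prrx1 and Prrx2, which were both higher after injury, and for Lhx1, which had the lowest log2 difference among the members. Each is the 250 bases before the start of the gene, 5′ to 3′ on the strand of the gene, from RefSeq on GRCm38.p6, a different build from the one named in the submitters' processing notes. Capitals mark matches to homeodomain motifs: TAATTA in Prrx1 (chr1:163313651-163313900, minus strand), and CTGTCA, the reverse complement of the MEIS and TGIF motif TGACAG, in Lhx1 (chr11:84525535-84525784, minus strand). The Prrx2 window (chr2:30845117-30845366, plus strand) held neither, nor TGATNNAT, the PBX-HOX motif, nor TGANTCA, the AP-1 motif. G and C made up 47.6% of the Prrx1 window, 70.0% of the Prrx2 window and 64.8% of the Lhx1 window, against a median of 59.6% over the 50 promoters found for 41 members and 52.4% over 32851 promoters.
Prrx1: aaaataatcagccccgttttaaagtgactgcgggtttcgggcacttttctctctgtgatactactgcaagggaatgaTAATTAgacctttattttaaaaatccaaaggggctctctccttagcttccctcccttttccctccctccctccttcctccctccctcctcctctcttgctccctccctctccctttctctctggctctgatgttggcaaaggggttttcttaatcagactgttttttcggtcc
Prrx2: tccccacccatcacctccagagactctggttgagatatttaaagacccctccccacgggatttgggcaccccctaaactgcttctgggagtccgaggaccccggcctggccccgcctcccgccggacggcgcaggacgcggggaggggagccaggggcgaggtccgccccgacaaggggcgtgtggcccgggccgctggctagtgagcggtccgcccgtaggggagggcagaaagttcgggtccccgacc
Lhx1: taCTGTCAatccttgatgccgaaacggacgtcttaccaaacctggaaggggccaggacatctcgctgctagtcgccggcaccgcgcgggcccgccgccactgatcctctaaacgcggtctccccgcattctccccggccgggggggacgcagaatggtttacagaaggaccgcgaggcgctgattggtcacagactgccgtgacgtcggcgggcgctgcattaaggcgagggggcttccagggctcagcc

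Motifs were searched on both strands. TAATTA was found in 4 of the 50 member promoters (8.0%), against 4.84% of all promoters. TGATNNAT was found in 5 (10%, against 7.68%), TGACAG in 6 (12%, against 15.9%) and TGANTCA in 3 (6.0%, against 6.75%). A match describes letters and does not show binding.

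The libraries were alike in total, with FPKM sums between 545590 and 584798, and the read depth is not given in the sources used here. Entries at 1 FPKM or more numbered 12750 to 13283 in the injured libraries and 11988 to 12156 in the sham libraries. Correlations of log2(FPKM + 1) between libraries of a group lay between 0.9604 and 0.9929. On the line from the sham mean (0%) to the IR mean (100%), IRLacz library 1 lay at 45.9% and IRLac library 3 at 66.9%, while the other injured libraries lay between 77.4% and 106%. Markers of kidney cells were present in every library. The summed level of 7 proximal tubule markers was 2271 to 3178 FPKM in IR and 5601 to 6089 FPKM in sham, that of 8 fibroblast and myofibroblast markers 745.5 to 932.1 FPKM in IR and 87.06 to 121 FPKM in sham, that of 7 macrophage markers 1098 to 1572 FPKM in IR and 83.37 to 114.2 FPKM in sham, and that of 5 cell cycle markers 37.46 to 59.93 FPKM in IR and 3.2 to 3.86 FPKM in sham. None of these markers was listed at 0 in every library.

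The most abundant member was the same in all groups. Cers2, a ceramide synthase with a homeobox-like domain, averaged 101.6 ± 3.17 FPKM in IRLacz, 103.1 ± 4.13 FPKM in IRLac, 103.2 ± 5.55 FPKM in IR and 106.3 ± 2.22 FPKM in sham (SD, n = 4 in IRLacz and 5 in the others). Over the 25 HOX members, the summed level was 318.1 to 394.3 FPKM in IRLacz, 341.7 to 408.4 FPKM in IRLac, 349 to 430 FPKM in IR and 253.7 to 301.8 FPKM in sham, so every injured library lay above every sham library. As deposited, 48.6% of all tested entries also had every IR library above every sham library. The median log2 difference of all entries between IR and sham was 0.29.

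**Figure D1:**
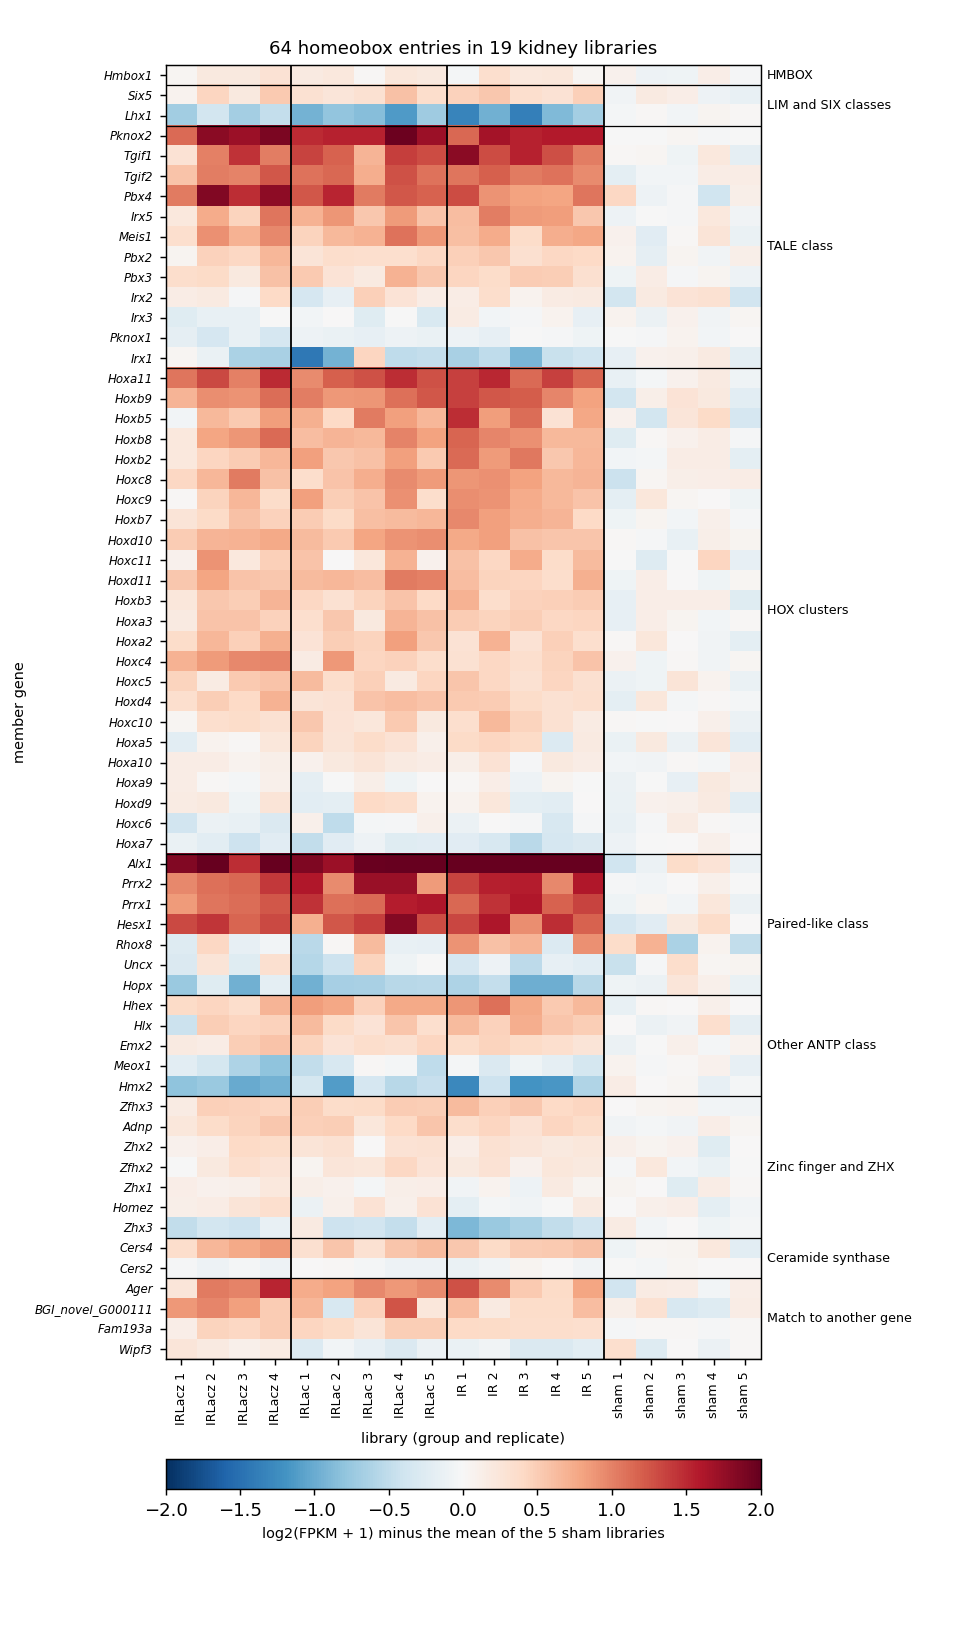
Each of 64 entries (rows, by homeobox class) in each of the 19 libraries (columns, by group), as log2(FPKM + 1) minus the mean of the 5 sham libraries, with the colour scale ending at 2 in either direction. Alx1, Pknox2, Prrx1, Prrx2 and Hesx1 are red in every injured library, and Lhx1 is blue in every one.

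The comparison of IR with sham addresses what the injury had changed by day 5. Members that were higher in the injured kidneys included Alx1, at 8.34 times its sham mean, Pknox2 at 7.75 times, Prrx1 at 5.69 times, Prrx2 at 5.52 times and Hoxa11 at 3.47 times. Lower members included Lhx1, at 0.437 times its sham mean, Hmx2 at 0.472, Hopx at 0.543, Zhx3 at 0.608, Irx1 at 0.66 and Hoxa7 at 0.784. In limma, on log2(FPKM + 1) with Benjamini-Hochberg adjustment over 13594 tested entries and a threshold of 0.05, 43 members were higher (62.3%) and 7 lower (10.1%). Over all tested entries 57.0% were higher and 18.6% lower, so the share of members higher was near that of all entries. With median-ratio scaling the split of members was 28 higher and 21 lower, and with quantile scaling 17 higher and 18 lower. The shares of all entries under each of those scalings are not given here, so this split is not read as a result about the members.

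The median difference over the members was 0.413, against 0.29 over all entries. Median-ratio scaling (0.159 over members, 0.004 over all entries) and quantile scaling (-0.032 and -0.061) removed that shift over all entries. TPM scaling kept it (0.497 and 0.342). Of the members, 9 reached 1 FPKM in no sham library and so entered through injured kidneys, which fixes their direction. Among them were Hesx1, Hoxd11, Pbx4, Pknox2, Prrx1, Prrx2, Zfhx3 and BGI_novel_G000111. Calls that held as deposited and under median-ratio, quantile and TPM scaling numbered 16 higher (23.2%, against 27.1% of all entries) and 7 lower (10.1%, against 17.2%). The 16 were Alx1, Hesx1, Hhex, Hoxa11, Hoxb2, Hoxb7, Hoxb8, Hoxb9, Hoxc9, Hoxd10, Pbx4, Pknox2, Prrx1, Prrx2, Tgif1 and Tgif2. Of these, Hesx1, Pbx4, Pknox2, Prrx1 and Prrx2 entered through injured kidneys, so their direction was fixed. The groups did not overlap for 39 members that were higher in IR (48.6% of all entries did so) and for the 7 that were lower (15.2% of all entries). Leaving out each of the 19 libraries in turn kept 46 of the 50 calls. The others were Hoxa10, Irx1, Zfhx2 and Zhx2.

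**Figure D2:**
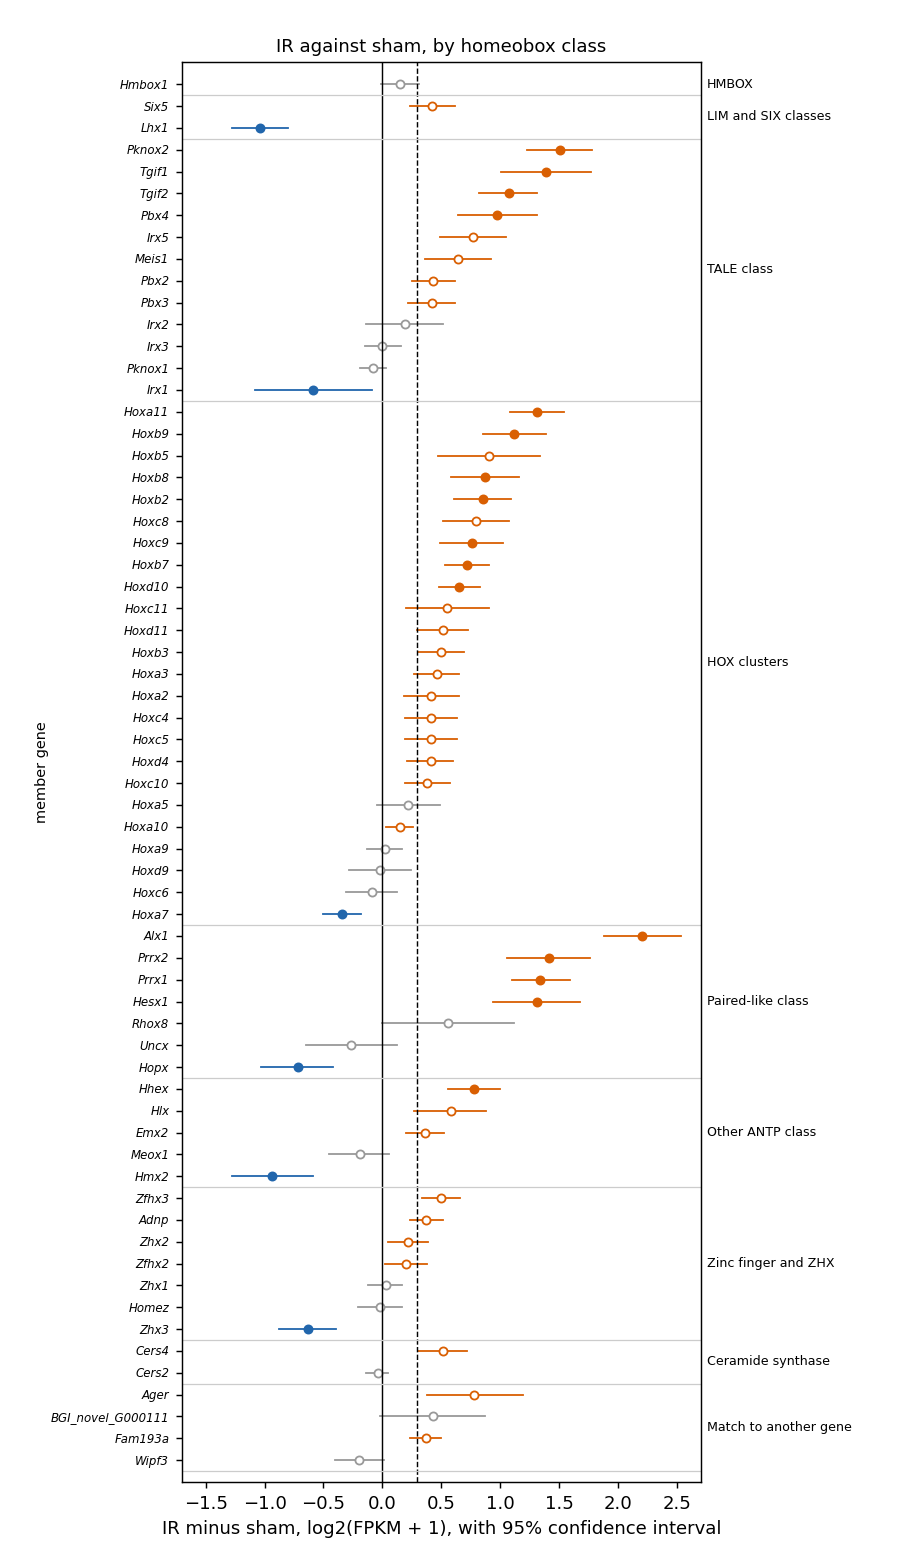
Difference between IR and sham for 64 entries on the log2(FPKM + 1) scale, with its 95% confidence interval, by homeobox class. Filled points were called under all 4 scalings, open coloured points as deposited but not under all 4, and grey points were not called as deposited. The dashed line is the median of all tested entries, 0.29. The lower members drawn, from Lhx1 at -1.04 to Hoxa7 at -0.34, are all filled.

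Alx1, which shapes the mesenchyme of the face, had the largest difference. It was at 7.16, 7.45, 7.77, 8.45 and 7.54 FPKM in the IR libraries, against 0.43, 0.74, 1.43, 1.27 and 0.73 FPKM in the sham libraries. Every IR library was far above every sham library, by 2.20 on the log2 scale (SE 0.16, limma adjusted p = 1.4e-09). The IRLacz libraries held 4.24 to 7.41 FPKM and the IRLac libraries 5.18 to 8.67 FPKM, so the gene was high in all 14 injured kidneys.

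The PRRX genes act in limb and facial mesenchyme and are used as markers of fibroblast lineages. Prrx1 was at 2.31, 3.04, 3.49, 2.35 and 2.81 FPKM in IR, against 0.4, 0.52, 0.43, 0.74 and 0.37 FPKM in sham. Its paralog Prrx2 was at 3.08, 3.7, 3.75, 2.11 and 3.85 FPKM in IR, against 0.57, 0.53, 0.6, 0.71 and 0.58 FPKM in sham. Neither gene overlapped between the groups, and both were below 1 FPKM in every sham library. Both thus entered through injured kidneys, which fixes their direction, so the separation and the p-values are no support for it. The log2 differences were 1.34 (SE 0.12, limma adjusted p = 1.8e-08) for Prrx1 and 1.41 (SE 0.17, adjusted p = 6.1e-07) for Prrx2. Hesx1, a repressor needed for pituitary development that was chosen after its values were seen, was at 1.75 to 3.46 FPKM in IR and 0.15 to 0.86 FPKM in sham. Hesx1 too entered through injured kidneys. All 8 fibroblast and myofibroblast markers were also higher in IR (median log2 difference 2.42), against 57.0% of all entries. Their part in the rise of these genes was not tested. Of the other paired-like members, Rhox8 and Uncx were not called as deposited.

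Rhox8, of the X-linked reproductive homeobox cluster, varied widely between libraries. It was at 9.05, 7.05, 7.65, 3.46 and 9.11 FPKM in IR, against 5.94, 7.71, 2.47, 4.65 and 2.84 FPKM in sham. The groups overlapped and the difference of 0.56 (SE 0.27) missed the threshold (limma adjusted p = 0.066, or 0.011 without IR library 4, 0.0194 without sham library 2 and 0.0486 without sham library 1).

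**Figure D3:**
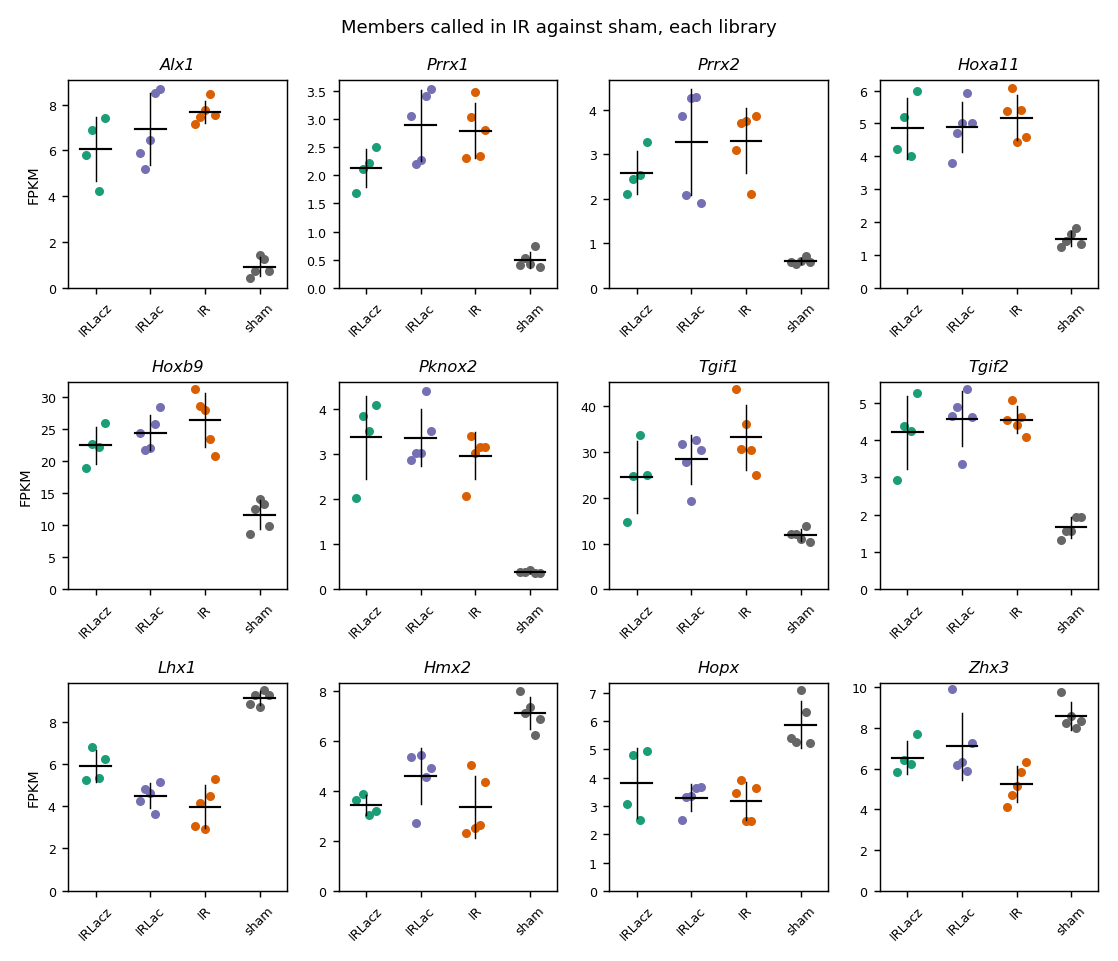
FPKM of 12 members in each library (points), with the group mean (horizontal line) and SD (vertical line), in IRLacz (n = 4), IRLac, IR and sham (n = 5 each), on linear axes from 0. The upper 8 panels show genes whose IR libraries all lie above all sham libraries, and the bottom row Lhx1, Hmx2, Hopx and Zhx3, whose IR libraries all lie below.

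Of the 13 TALE genes, 8 were called higher and 1 lower as deposited (57.0% and 18.6% of all entries were). Under all 4 scalings 4 were higher (30.8%, against 27.1% of all entries) and 1 lower (7.69%, against 17.2%). The share of TALE genes higher was thus near that of all entries. As deposited, the SMAD repressors were higher, the partners of HOX proteins were higher or not called, and the Iroquois genes were divided. Pknox2, a partner of PBX proteins, was at 2.06, 3.4, 3.03, 3.16 and 3.15 FPKM in IR, against 0.38, 0.38, 0.42, 0.36 and 0.37 FPKM in sham. Every IR library was several times above the sham level, by 1.51 on the log2 scale (SE 0.13, limma adjusted p = 1.6e-08). Pknox2 reached 1 FPKM in no sham library, so its entry through injured kidneys fixes its direction and this p-value is no support for it. Tgif2, which represses genes activated through TGF-beta and SMAD proteins, was at 4.55, 5.07, 4.42, 4.63 and 4.1 FPKM in IR, against 1.31, 1.55, 1.56, 1.94 and 1.93 FPKM in sham. Its IR libraries were close to each other and all above sham, by 1.07 on the log2 scale (SE 0.12, adjusted p = 2.4e-07). Its paralog Tgif1, chosen after its values were seen, was the more abundant, with 25.06 to 43.74 FPKM in IR and 10.24 to 13.83 FPKM in sham (difference 1.39, SE 0.18, adjusted p = 1.8e-06).

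The Iroquois genes pattern nephron segments in frog and zebrafish embryos. Irx3 was at 61.16, 52.36, 53.82, 57.34 and 48.61 FPKM in IR, against 57.34, 49.94, 57.69, 51.53 and 56.07 FPKM in sham. The groups overlapped fully and the difference as deposited was 0.00 (SE 0.07, 95% interval -0.15 to 0.16, limma adjusted p = 0.98), or -0.34 with median-ratio scaling (adjusted p = 0.000457). Irx1 was at 25.08, 27.75, 20.75, 29.03 and 30.17 FPKM in IR, against 35.62, 42.57, 42.86, 45.33 and 34.81 FPKM in sham. The groups did not overlap, and the difference of -0.59 (SE 0.24) passed narrowly (adjusted p = 0.033, or 0.0813 without IR library 3). It also missed the threshold without IR library 1 or sham library 2, 3 or 4, with adjusted p between 0.057 and 0.0667. Irx5 was higher, at 3.43 to 5.22 FPKM in IR and 1.87 to 2.53 FPKM in sham, and Irx2 was not called as deposited. Of the other TALE members, Meis1, Pbx2, Pbx3 and Pbx4 were higher as deposited (Pbx3 was at -0.08 under quantile scaling), and Pknox1 was not called.

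Of the 25 HOX genes, 20 were called higher in IR as deposited (80.0%, against 57.0% of all entries) and 1 lower (4.0%, against 18.6%), with a median difference of 0.498, against 0.29 over all entries. Under all 4 scalings 7 were higher (28%, against 27.1% of all entries) and Hoxa7 was lower (4.0%, against 17.2%), so the share of HOX genes higher was then at that of all entries. Each of the 6 Hoxb members on chromosome 11 was higher (median 0.86), 4 of them under all scalings. In the Hoxa cluster on chromosome 6 the calls were divided, with 5 higher, 1 lower and 2 not called among 8. The Hoxc cluster on chromosome 15 had 6 of 7 higher and the Hoxd cluster on chromosome 2 had 3 of 4. Whether the clusters differ from each other was not tested.

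Hoxa11, which with its paralogs is needed for kidney formation in the mouse embryo, was at 5.39, 6.08, 4.43, 5.41 and 4.59 FPKM in IR, against 1.24, 1.43, 1.63, 1.82 and 1.34 FPKM in sham. Each IR library was far above the highest sham library, by 1.31 on the log2 scale (SE 0.11, limma adjusted p = 1.1e-08). Of its neighbours, Hoxa10 was at 26.53 to 32.91 FPKM in IR and 25.71 to 29.63 FPKM in sham (difference 0.15, SE 0.06, adjusted p = 0.027, but -0.19 with adjusted p = 0.018 under median-ratio scaling and -0.06 under quantile scaling). Hoxa9 was not called as deposited (0.02) but was lower with median-ratio scaling (-0.31, adjusted p = 0.0018). Hoxa7 was the lone HOX gene called lower as deposited, at 26.92, 25.25, 21.35, 24.96 and 25.72 FPKM in IR, against 29.4, 31.48, 31.7, 33.98 and 31.79 FPKM in sham. The groups did not overlap, with a difference of -0.34 (SE 0.07, adjusted p = 0.00047).

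Hoxb9, a posterior gene of its cluster, was at 31.33, 28.67, 27.99, 23.49 and 20.78 FPKM in IR, against 8.66, 12.51, 14.13, 13.26 and 9.82 FPKM in sham. Hoxb7, whose promoter is widely used to drive transgenes in the mouse collecting duct lineage, was at 47.32, 42.5, 39.67, 38.36 and 31.66 FPKM in IR, against 22.25, 24.77, 22.88, 25.4 and 23.3 FPKM in sham. All IR libraries lay above all sham libraries for both genes. The differences were 1.12 (SE 0.13, limma adjusted p = 4.3e-07) for Hoxb9 and 0.72 (SE 0.09, adjusted p = 8.9e-07) for Hoxb7. Of 8 collecting duct markers, 4 were lower in IR and none higher, against 18.6% and 57.0% of all entries. Their summed level was 336.6 to 746.8 FPKM in IR and 359.7 to 556.2 FPKM in sham. The part of collecting duct cells in the differences of Hoxb7 and Hoxb9 was not tested.

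**Figure D4:**
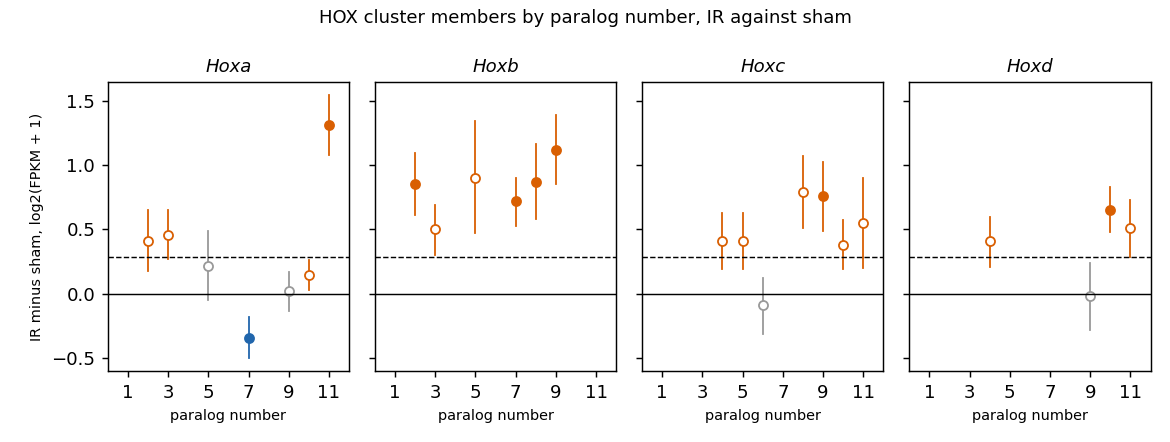
Difference between IR and sham for 24 HOX members on the log2(FPKM + 1) scale, with 95% confidence intervals, by cluster (panels) and paralog number (horizontal axis). Filled points were called under all 4 scalings, open coloured points as deposited but not under all 4, and grey points were not called as deposited. The dashed line is the median of all tested entries. Hoxa7 and Hoxa11 stand at -0.34 and 1.31 in the same cluster, and every Hoxb member is above 0.

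Lhx1, a LIM homeobox gene needed for nephron formation in the mouse embryo, was at 3.05, 4.16, 2.91, 4.46 and 5.3 FPKM in IR, against 8.85, 9.23, 8.67, 9.48 and 9.24 FPKM in sham. The sham libraries were tightly grouped and all above IR, a difference of -1.04 (SE 0.11, limma adjusted p = 2.5e-07). Hmx2, known for the development of the inner ear, was at 2.3, 5.05, 2.52, 2.62 and 4.34 FPKM in IR, against 8.01, 7.12, 7.36, 6.25 and 6.88 FPKM in sham. The IR libraries fell into a lower and a higher set, all below sham (difference -0.94, SE 0.16, adjusted p = 4.9e-05). Hopx, whose homeodomain does not bind DNA, was at 3.45, 3.9, 2.48, 2.45 and 3.63 FPKM in IR, against 5.4, 5.27, 7.1, 6.33 and 5.21 FPKM in sham. It did not overlap between the groups either (difference -0.72, SE 0.15, adjusted p = 0.00022). Zhx3, a repressor with zinc fingers and homeodomains, was at 4.13, 4.71, 5.16, 5.82 and 6.36 FPKM in IR, against 9.76, 8.27, 8.62, 8.03 and 8.36 FPKM in sham. Its groups were separate too (difference -0.63, SE 0.12, adjusted p = 9.5e-05). As deposited, its relatives Zhx1 and Homez were not called and Zhx2 was called higher (0.22, adjusted p = 0.018). Under quantile scaling Zhx2 was at -0.14 and Homez was called lower (-0.51, adjusted p = 9.2e-05). All 7 proximal tubule markers were lower in IR (median difference -1.09), against 18.6% of all entries. So were 5 of 6 thick limb and distal tubule markers (median -1.148), which summed to 986.4 to 1754 FPKM in IR and 1947 to 2759 FPKM in sham, and 4 of 8 collecting duct markers (median -0.46). Their part in the fall of Lhx1, Hmx2, Hopx and Zhx3 was not tested.

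Emx2, needed in the ureteric bud of the mouse embryo, was at 17.68, 18.86, 18.02, 17.35 and 16.38 FPKM in IR, against 12.46, 13.46, 14.53, 13.08 and 14.19 FPKM in sham. The groups did not overlap and the gene was called higher as deposited (0.36, SE 0.07, limma adjusted p = 0.00028), near the median shift of all entries, and was not called with median-ratio scaling (0.04, adjusted p = 0.636). Of the remaining members, Hhex, Hlx, Six5, Adnp, Zfhx2, Zfhx3 and Cers4 were called higher as deposited, with differences from 0.20 for Zfhx2 to 0.78 for Hhex. Under quantile scaling Zfhx2 was called in the opposite direction (-0.33, limma adjusted p = 0.00038), and Six5 (-0.02), Zfhx3 (-0.03) and Cers4 (-0.02) were just below 0. The endothelial and liver factor Hhex, at 2.44 to 4.14 FPKM in IR and 1.17 to 1.56 FPKM in sham, was the one of these called under all 4 scalings. Meox1, Hmbox1 and Cers2 were not called as deposited. With median-ratio scaling Hmbox1 (-0.16, adjusted p = 0.038) and Cers2 (-0.39, adjusted p = 3e-05) were called lower.

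Of 23 tested transcriptional cofactors of homeodomain proteins, 16 were higher and 2 lower as deposited (median 0.474, against 0.29 over all entries, of which 57.0% were higher and 18.6% lower). The 2 lower were Pcbd1 (-0.96, limma adjusted p = 1.2e-05) and Pcbd2 (-0.31, adjusted p = 0.011). The LIM domain gene Lmo2 (1.34, adjusted p = 2.3e-07) and the TGIF partners Smad3 (1.14, adjusted p = 1.3e-08) and Smad2 (0.73, adjusted p = 1.3e-06) were among the higher.

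The comparison of IRLacz with IR addresses how injured kidneys differed after gavage with the strain taken as Lactobacillus casei Zhang. IR kidneys are shared by this comparison and the one with sham. Lhx1, which was lower in IR than in sham, was higher in IRLacz than in IR, as was the HOX gene Hoxc4. In limma, 6 members were higher (8.7%, against 5.39% of all entries) and 3 lower (4.35%, against 7.92%). An unadjusted p under 0.05 was found for 18 of the 69 members and 4171 of the 13594 tested entries. Under all 4 scalings 5 were higher (4.06% of all entries were) and 2 lower (5.86% of all entries were). One call of the 9, Hoxc4, held with each of the 19 libraries left out in turn. Without IRLacz library 2, 1 member was higher and none lower, and without IR library 3, 2 were higher and none lower.

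Lhx1 was at 5.24, 6.8, 5.32 and 6.22 FPKM in IRLacz, against 3.05, 4.16, 2.91, 4.46 and 5.3 FPKM in IR. The highest IR library reached into the range of IRLacz. The difference was 0.49 (SE 0.12, limma adjusted p = 0.017, or 0.0614 without IRLacz library 2 and 0.0542 without IR library 3). Hoxc4, whose paralogs pattern the anterior trunk, was at 2.79, 3.21, 3.56 and 3.62 FPKM in IRLacz, against 1.89, 2.11, 1.96, 2.19 and 2.48 FPKM in IR. Those groups did not overlap (difference 0.46, SE 0.11, adjusted p = 0.015, highest 0.0446 without IR library 3), and 1 IRLac library, at 3.26 FPKM, lay among the IRLacz values. Its own change with injury depended on the scaling, at 0.41 as deposited (adjusted p = 0.0016) and -0.13 with quantile scaling.

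Wipf3, the actin regulator under the family label by a short match, was at 1.33, 1.22, 1.11 and 1.2 FPKM in IRLacz, against 0.8, 0.87, 0.61, 0.6 and 0.69 FPKM in IR. The groups did not overlap (difference 0.37, SE 0.10, limma adjusted p = 0.027, or 0.0714 without IR library 3, 0.0646 without IRLacz library 1 and 0.0654 without IRLacz library 2). It entered through the 4 IRLacz libraries and 2 sham libraries, since no IR or IRLac library reached 1 FPKM. Without the IRLacz libraries Wipf3 would not be a member, so the separation and the p-values are no support for a difference.

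**Figure D5:**
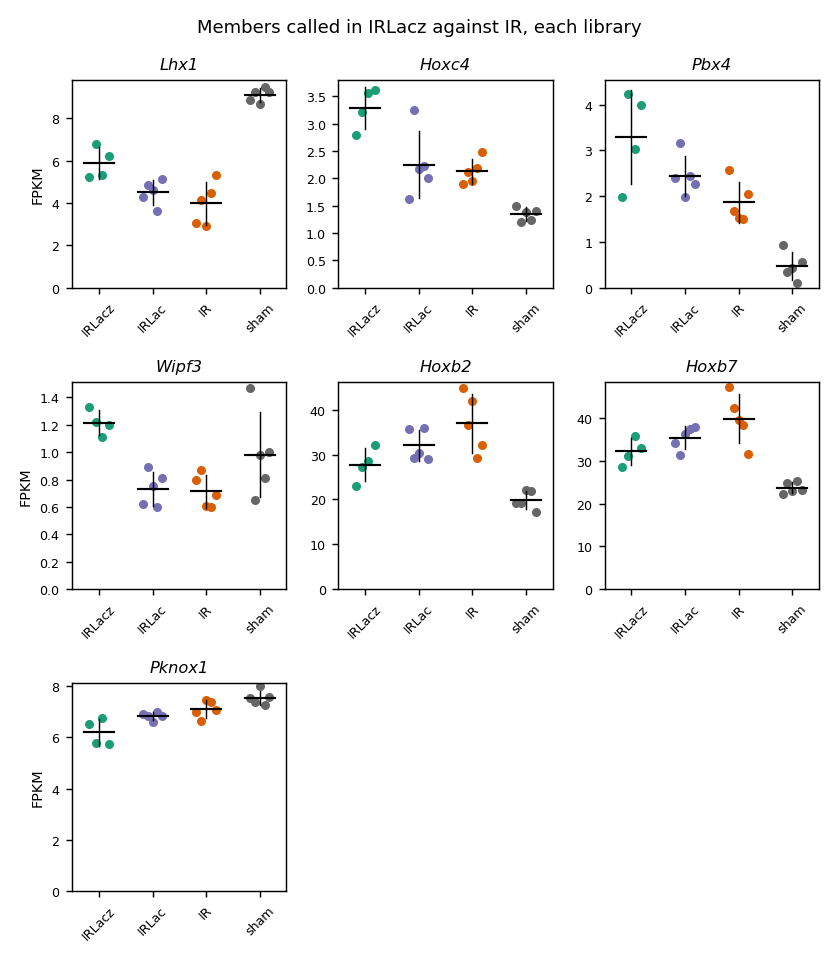
FPKM of 7 entries called in IRLacz against IR in each library (points), with the group mean (horizontal line) and SD (vertical line), in IRLacz (n = 4), IRLac, IR and sham (n = 5 each), on linear axes from 0. Hoxc4 and Wipf3 do not overlap between IRLacz and IR, and Lhx1 lies below all sham libraries in every injured group.

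The called members Pbx4, Hoxb2, Hoxb7 and Pknox1 were chosen after their values were seen. Pbx4 was at 1.97 to 4.22 FPKM in IRLacz and 1.51 to 2.57 FPKM in IR (difference 0.56, limma adjusted p = 0.038). Hoxb2 was lower, at 23.11 to 32.04 FPKM in IRLacz and 29.33 to 44.87 FPKM in IR (-0.39, adjusted p = 0.037). Hoxb7 was lower, at 28.56 to 35.96 FPKM in IRLacz and 31.66 to 47.32 FPKM in IR (-0.29, adjusted p = 0.044), and Pknox1 at 5.75 to 6.74 FPKM in IRLacz and 6.62 to 7.48 FPKM in IR (-0.17, adjusted p = 0.049). The groups overlapped in all 4. Without IRLacz library 2 the adjusted p was 0.128 for Pbx4 and 0.154 for Pknox1, and without IRLacz library 1 it was 0.115 for Hoxb2 and 0.129 for Hoxb7. Of the 19 libraries left out in turn, the call was kept with 13 for Pbx4, 13 for Hoxb2, 6 for Hoxb7 and 2 for Pknox1.

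The genes with the largest differences after injury were not called between IRLacz and IR. For Tgif1 the difference was -0.45 (95% interval -0.85 to -0.05, limma adjusted p = 0.12), and for Hesx1 it was 0.00 (-0.39 to 0.39). The difference was -0.31 for Alx1 (95% interval -0.66 to 0.03, limma adjusted p = 0.2), -0.28 for Prrx1 (-0.54 to -0.01, adjusted p = 0.14), -0.25 for Prrx2 (-0.62 to 0.12, adjusted p = 0.34), -0.08 for Hoxa11 (-0.33 to 0.16, adjusted p = 0.65) and 0.12 for Pknox2 (-0.17 to 0.42, adjusted p = 0.57). Of the 23 tested cofactors, Smad3 was lower (-0.45, adjusted p = 0.012) and none higher, against 7.92% and 5.39% of all entries.

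Markers of other cells differed in part in the same comparison, in which 5.39% of all entries were higher and 7.92% lower. The 6 thick limb and distal tubule markers summed to 1864 to 3117 FPKM in IRLacz and 986.4 to 1754 FPKM in IR, with 1 of 6 called higher, and 8 collecting duct markers to 467.7 to 1013 FPKM in IRLacz and 336.6 to 746.8 FPKM in IR, with 3 of 8 called higher. Proximal tubule markers summed to 1957 to 4192 FPKM in IRLacz and 2271 to 3178 FPKM in IR, with none of 7 called. The fibroblast and myofibroblast markers summed to 341.4 to 531.8 FPKM in IRLacz and 745.5 to 932.1 FPKM in IR, with 6 of 8 lower, the macrophage markers to 458.7 to 1043 FPKM in IRLacz and 1098 to 1572 FPKM in IR, with 5 of 7 lower, and all 5 cell cycle markers were lower. Their part in the differences of Lhx1, Hoxc4 and the Hoxb genes was not tested.

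The comparison of IRLac with IR addresses the strain taken as Lactobacillus acidophilus, again with IR shared. No member was called by limma (0.0% of all entries were higher and 0.00736% lower). An unadjusted p under 0.05 was found for 4 of the 69 members and 786 of the 13594 tested entries, a similar share. Zhx3 was at 9.92, 6.17, 6.34, 5.87 and 7.26 FPKM in IRLac, against 4.13, 4.71, 5.16, 5.82 and 6.36 FPKM in IR. The groups overlapped, with 1 IRLac library above all others (difference 0.37, SE 0.12, adjusted p = 0.44). Hoxd11, a paralog of Hoxa11, was at 1.09, 1.15, 1.08, 1.76 and 1.72 FPKM in IRLac, against 1.06, 0.83, 0.82, 0.72 and 1.2 FPKM in IR, also overlapping (0.29, SE 0.10, adjusted p = 0.59). In sham Hoxd11 was at 0.27, 0.48, 0.35, 0.27 and 0.39 FPKM.

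Hmx2 was at 5.34, 2.73, 5.45, 4.54 and 4.91 FPKM in IRLac, against 2.3, 5.05, 2.52, 2.62 and 4.34 FPKM in IR, with overlap (difference 0.38, SE 0.16, limma adjusted p = 0.82). Rhox8 was at 2.72, 4.48, 7.4, 3.84 and 3.82 FPKM in IRLac, against 9.05, 7.05, 7.65, 3.46 and 9.11 FPKM in IR, with overlap again (-0.60, SE 0.27, adjusted p = 0.83). Each of these 4 differences had an unadjusted limma p under 0.05, and none passed the threshold after adjustment over the 13594 tested entries.

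The comparison of IRLacz with IRLac addresses whether the strains differed. No member was called by limma (0.00736% of all entries were higher and 0.0147% lower). An unadjusted p under 0.05 was found for 7 of the 69 members and 2171 of the 13594 tested entries. The 7 members included Hoxc4 (difference 0.41, SE 0.11, adjusted p = 0.11), Wipf3 (0.36, SE 0.10, adjusted p = 0.13) and Lhx1 (0.33, SE 0.12, adjusted p = 0.21). Wipf3 was at 1.11 to 1.33 FPKM in IRLacz and 0.6 to 0.89 FPKM in IRLac, without overlap. It entered through the IRLacz libraries, so this separation is no support for a difference between the strains. The calls of Lhx1 and Hoxc4 against IR are thus not shown to be particular to either strain.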

How the data were processed

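The authors deposited 1 table of FPKM values per gene, with a column for each of the 19 libraries. Per the submitters' processing notes, mm9 was the build, and StringTie 1.0.4 and HISAT were tools, with no role given. RNA was extracted with Trizol, per the labels' protocols. Nothing in the sources used here gives the annotation, strand, treatment of reads shared between genes, filters or read depth, so no counting interval is printed. Family names came from a transcription factor table by the authors, which gives the percent identity of each entry to its best protein match. A second such table that was deposited is left out.

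FPKM values are not counts, so log2(FPKM + 1) was tested in R 4.3.3 (limma 3.58.1, mean-variance trend). All 19 libraries were in 1 model (15 residual degrees of freedom), and p-values had Benjamini-Hochberg adjustment over the 13594 entries that reached 1 FPKM in 4 or more libraries. The threshold was 0.05. This scale understates the change of low genes. The steps were tested on simulated data. Ratios are of mean FPKM. Tables were handled in Python 3.11.15 with pandas 2.3.3.

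The sample titles gave groups and replicate numbers. The members, 20 gene lists and alternatives were chosen with earlier results of these data known. Values in every library are given for up to 8 members higher and up to 8 lower in IR against sham by smallest adjusted p, up to 4 with the smallest p in each other comparison, and fixed kidney factors (Emx2, Prrx1, Hopx and Irx3 among those given). This makes 20 in all. Some members are counted but not otherwise reported here. Alternatives were 3 other scalings, another pseudocount, other filters and identities, only the groups compared, library weights, a replicate block, and each library left out. Promoters and positions are from RefSeq on GRCm38.p6 and were not converted.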

Additional observations from a re-analysis of the deposited data

Results flagged for a closer look

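Of 80 sets of values examined (20 members in 4 groups), 2 held a library that stood apart from the others of its group by Dixon's test, which flags about 1 in 20 sets by chance. Pknox2 was at 2.06 FPKM in IR library 1, against 3.03 to 3.4 FPKM in the other IR libraries, and still above every sham library. Hoxd11 was at 1.33 FPKM in IRLacz library 2, against 0.96 to 1 FPKM in the other IRLacz libraries.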

How the results depend on the processing

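In IR against sham, 43 members were higher and 7 lower. These counts were 28 and 21 with median-ratio scaling, 17 and 18 with quantile scaling, and 322 and 47 of 448 entries at any identity. The shares of all entries under each alternative are not given here, so changes in the counts are not read as particular to the members. Leaving out each library gave 41 to 45 higher and 6 to 7 lower. Of the 50 called, 14 changed sign under another scaling, Hoxd11 (-0.054) and Hoxc4 (-0.13 with quantile scaling) among them, and 2 were called lower instead of higher: Hoxa10 at -0.19 with median-ratio scaling (limma adjusted p = 0.018) and Zfhx2 at -0.33 with quantile scaling (adjusted p = 0.00038). Irx3, at 0.00 as deposited, was -0.34 with median-ratio and -0.07 with quantile scaling, and between -0.039 and 0.042 with each library left out, below 0 without IR library 1, IR library 4, sham library 2 or sham library 4. In IRLacz against IR, 6 members were higher and 3 lower. These were 2 and 0 with only those groups in the model, 24 and 51 at any identity, 1 to 7 and 0 to 4 with each library left out, and the lower were 0 with no filter on low values and 6 with library weights. The fewest higher were 1 without IRLacz library 2 and 2 without IR library 3. Members called in IRLac against IR and in IRLacz against IRLac stayed at 0 under every alternative. The cause of these changes was not tested. With a replicate block the lower members in IRLacz against IR were 1, and Irx1 in IR against sham had a limma adjusted p of 0.0546. Replicate numbers share no stated source, and deviations of same-numbered libraries correlated between -0.394 and 0.23 (27 pairs, 6 over 0.1), so the numbers were not taken as pairing. Leaving out IRLacz library 1 and IRLac library 3 together, the 4 entries matched to other genes, and the count under all 4 scalings were chosen after seeing the data. Without those libraries, IRLacz against IR had 5 members higher and 2 lower. Read depth is unknown, so low members such as Hoxd11, Uncx and Hoxc11 carry a counting error that cannot be given.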

Other observations

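Embryonic partners of the homeobox genes were divided after injury. Of 13 tested genes of a nephron progenitor and ureteric bud list (18 in all, Lhx1 among them), 6 rose and 3 fell in IR relative to sham by limma, with a median log2 difference of 0.108, against 0.29 over all entries, of which 57.0% were higher and 18.6% lower. Wnt4, a signal that starts nephron formation in the mouse embryo, averaged 9.816 ± 1.39 FPKM in IR, against 0.9 ± 0.329 FPKM in sham (SD, n = 5 each, difference 2.52, adjusted p = 4.6e-10). The paired box factors Pax8 (1.03, adjusted p = 6.9e-07) and Pax2 (0.53, adjusted p = 7e-05) and the stromal factor Tcf21 (1.28, adjusted p = 4.5e-08) were higher. The GDNF co-receptor gene Gfra1 averaged 0.346 ± 0.236 FPKM in IR, against 1.512 ± 0.0763 FPKM in sham (-0.92, adjusted p = 5.4e-06), and Osr1 was lower too (-0.36, adjusted p = 0.031). Lhx1 was the 1 gene of the list called in IRLacz against IR.

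Of 9 podocyte genes linked to LMX1B, a homeobox factor below the expression minimum here, 3 rose and 5 fell in IR relative to sham (median -0.255), against the same 57.0% and 18.6% of all entries, and in IRLacz relative to IR 2 rose and 1 fell, against 5.39% and 7.92% of all entries. Of 12 tested ceramide and sphingolipid genes, a list without the ceramide synthases, 4 rose and 5 fell in IR relative to sham (median -0.033), and 1 rose in IRLacz relative to IR, to be read against the same shares.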
